A study of Mus musculus with 6 samples.

Results

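The genes described here are the cytosolic ribosomal protein genes of mouse embryonic fibroblasts (MEFs). They were chosen by name, as genes called Rpl or Rps with a number, Rplp0 to Rplp2 and Rpsa, with pseudogene names left out. The deposited table lists 87 such names among 38483 genes. The 49 that lie on the plus strand are listed at 0 in every culture, as are all other plus-strand genes, so nothing can be said about them. The remaining 38 genes, among 19269 on the minus strand, are measured, 18 named for the large and 20 for the small ribosomal subunit. They lie on 16 chromosomes, and 37 of them had enough counts to be tested. Rps3a2, counted here with the small subunit, is annotated as a processed pseudogene in GENCODE M21. Rpl7l1 is counted with the large subunit by its name alone, and whether its protein is part of the ribosome was not examined.

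The cytosolic ribosome translates all mRNAs made from nuclear genes. Its small subunit binds the mRNA and decodes it, and its large subunit joins the amino acids and lets the new chain out through a tunnel. Each ribosomal protein is usually present in a single copy per ribosome, apart from the acidic P proteins of the stalk, and the mRNAs of the set are known to be made and translated together. In vertebrates they begin with a C followed by a run of pyrimidines, the 5′ terminal oligopyrimidine (TOP) tract, through which mTOR signalling and the protein LARP1 regulate their translation.

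RNA came from 3 WT and 3 Nipbl+/- MEF cultures of strain CD1 at passage 3, with 1 library each. Nipbl+/- cells carry a knockout of one allele of Nipbl, which encodes the loader of cohesin, and both genotypes came from littermate embryos whose limbs, brain and internal organs had been removed. The embryos were of a single pregnant mouse, and all cultures therefore share a litter and an embryonic age. Total RNA was depleted of rRNA, which leaves both mRNA and unprocessed transcripts in the library. The total count per culture was between 20307454 and 25990783. Nipbl (chr15:8291225-8444463, mm10) had levels of 128, 145 and 135 CPM (the count scaled to library size, here by TMM, edgeR's trimmed mean of M-values) in WT and 101, 101 and 100.3 CPM in Nipbl+/-, with no overlap. Its log2 fold change was -0.43 (SE 0.0570, adjusted p = 0.0213 by edgeR's quasi-likelihood test), and it missed the threshold of 0.05 without WT 1, Nipbl+/- 1 or Nipbl+/- 2 (edgeR adjusted p = 0.0755, 0.0864 and 0.0772). Xist, which marks cells with an inactive X, was counted 7544 to 7882 times in WT 3, Nipbl+/- 1 and Nipbl+/- 2 and 1 to 25 times in the other cultures, so the sexes were not balanced between the genotypes. Only 4 of 14 fibroblast markers lay on the counted strand, and the most abundant of them was Fn1, fibronectin, at 16022 ± 1449 CPM in WT (SD, n = 3).

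RefSeq holds a start region for 24 of the 38 genes, in 25 windows of 250 bases before and 50 after the annotated start (build GRCm38.p6). A C at the annotated start followed by at least 4 pyrimidines stood in 7 of these windows (28.0%) and in 2.51% of all 32851 windows. The 7 are shown from 30 bases before the start to base 20 of the transcript, 5′ to 3′ on the minus strand, because they carry the feature that the set is known for. Capitals mark the tract, and Rpl7l1, the member whose level lay most above WT in Nipbl+/- cultures, stands last for contrast, with no such tract at its annotated start.
Rpl15, chr14:18270967-18271016: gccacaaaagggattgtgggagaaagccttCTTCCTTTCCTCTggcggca
Rpl35, chr2:39005112-39005161: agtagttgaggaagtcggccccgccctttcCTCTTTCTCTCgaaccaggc
Rps6, chr4:86857348-86857397: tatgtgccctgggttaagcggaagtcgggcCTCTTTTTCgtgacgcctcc
Rps10, chr17:27635225-27635274: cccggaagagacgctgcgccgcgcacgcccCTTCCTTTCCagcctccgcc
Rps15a, chr7:118116128-118116177: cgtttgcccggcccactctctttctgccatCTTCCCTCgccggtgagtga
Rps18, chr17:33955646-33955695: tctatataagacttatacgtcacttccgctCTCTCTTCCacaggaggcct
Rps27, chr3:90213629-90213678: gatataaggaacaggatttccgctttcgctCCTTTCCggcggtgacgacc
Rpl7l1, chr17:46782637-46782686: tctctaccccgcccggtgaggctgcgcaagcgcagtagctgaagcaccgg

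The tract was 7 to 13 bases long in the 7 genes. The ETS core CCGGAAG, searched on both strands of the whole window, stood in 12 of the 25 windows (48.0%) against 8.86% of all windows. The YY1 core AAGATGG stood in 6 windows (24.0%) against 6.34% of all. For TATAA the shares were 24.0% and 24.9%. These are matches of letters only, and a window can miss a tract because its annotated start is a few bases off. The 7 genes with the tract had a median log2 fold change between genotypes of -0.04 (range -0.07 to -0.01). The 16 tested genes with a window but no tract, Rpl7l1 among them, had the same median of -0.04 (range -0.13 to 0.08).

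The comparison of genotypes asks whether loss of one Nipbl allele changes the mRNA levels of ribosomal proteins. No ribosomal protein gene passed the threshold. At an adjusted p under 0.05 in edgeR's quasi-likelihood test, 0 of 37 members were higher and 0 lower, while 1.04% of the 9061 tested genes were called higher and 0.916% lower. The lowest adjusted p among the members was 0.256. At an unadjusted p under 0.05, 2 members, Rplp1 among them, were lower and 0 higher, against 7.95% of all tested genes lower and 8.98% higher. DESeq2, edgeR's exact test and its likelihood ratio test also called 0 members, although they called 5.26%, 4.77% and 4.88% of the genes they tested.

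The estimates were small and were bounded closely. The fitted log2 fold change of the members lay between -0.16 and 0.08, with SEs of 0.0445 to 0.0927, and the median SE was 0.0544 where that of all tested genes was 0.101. Members are highly counted, with 2895 to 50059 counts per culture, and the median SE of the 1258 tested genes at or above the lowest member in level was 0.0551. The 95% interval included 0 for 35 members. Over all members, the lowest lower bound was a level 20.9% below WT (Rpl13a) and the highest upper bound a level 14.1% above WT (Rpl7l1).

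**Figure D1:**
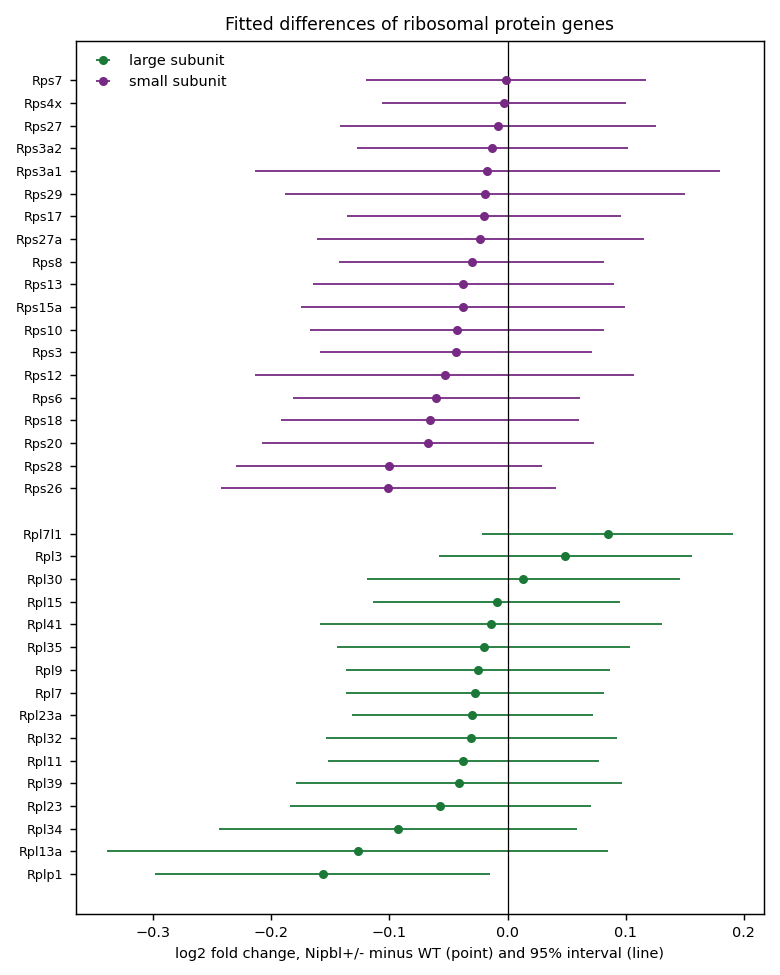
Log2 fold change of 35 tested ribosomal protein genes, Nipbl+/- minus WT (x axis), as a point with its 95% interval from edgeR's quasi-likelihood fit, for the 16 large and 19 small subunit genes shown. All points lie between -0.16 and 0.08, and among the genes shown only the interval of Rplp1 leaves out 0.

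The estimates leaned to one side of 0, and this lean changed with the cultures included and with the scaling. With TMM scaling 34 of 37 members had a log2 fold change below 0, as did 51.6% of all tested genes. With library size alone 15 of 37 members did, but that scaling also shifted the other genes. The median was then 0.0079 over the members and 0.032 over all tested genes, beside -0.03 and -0.01 with TMM. Members thus lay below all tested genes under both scalings. Without WT 1 the number of members below 0 was 14 of 37, and without Nipbl+/- 3 it was 25 of 37. The median log2 fold change was -0.03 over the large subunit genes and -0.04 over the small subunit genes, beside -0.01 over all tested genes. Without WT 1 both medians were 0.01, beside -0.0044 over all tested genes.

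Across cultures the members moved together. The typical member, taken as the median log2 difference from its own WT mean, stood at 0.08 in WT 1, -0.03 in WT 2 and -0.05 in WT 3. In Nipbl+/- cultures it stood at -0.04, 0.02 and -0.08. The groups overlap, and WT 1 stands highest. WT 1 had the highest level of 32 of the 37 members, and Nipbl+/- 3 the lowest level of 21 of them and WT 3 of 11. Among all tested genes WT 1 was highest for 16.3%, and among the 1258 tested genes at or above the lowest member in level for 21.9%. WT 1, WT 2 and Nipbl+/- 3 all had few Xist counts, and WT 2 stands between the other 2 at -0.03. A further fit, chosen after seeing the data, had as a covariate whether Xist was above 10 CPM in a culture (the Xist class). It left 33 of 37 members below 0 and called 0.

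**Figure D2:**
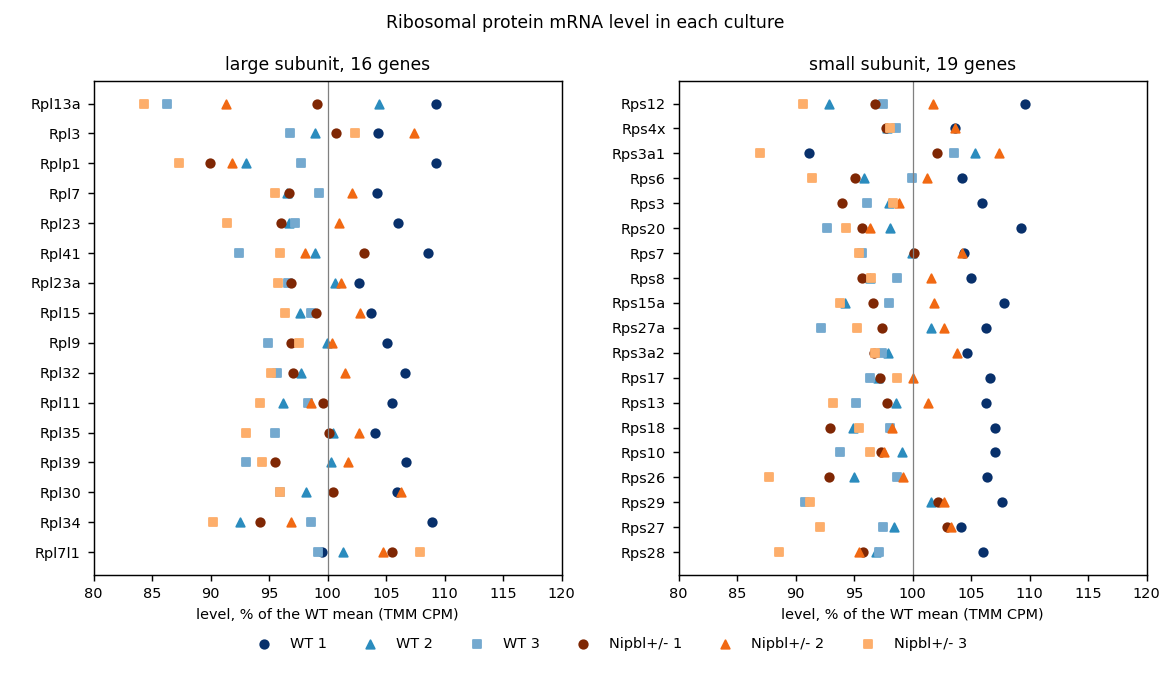
TMM-scaled CPM of 35 tested members in each of the 6 cultures as a percentage of its WT mean (x axis), for 16 genes of the large (left) and 19 of the small (right) subunit, ordered by level. WT 1 (dark blue circles) lies right of the other cultures for most genes, and the other cultures are interleaved.

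The common movement can be removed by measuring each member against the mean of all tested members in the same culture. The range of log2 CPM over the 6 cultures was 0.18 for the median member, and relative to the other members it was 0.09. It became smaller for 34 of 37 members. For the 1258 genes at like levels, members included, the median range was 0.19 both before and after the mean of those genes was subtracted. TMM scaling already centres most genes between cultures, so that subtraction could hardly change their ranges and is no measure of how other sets behave. Relative to the set, 34 members varied by less than 0.2 on the log2 scale over all 6 cultures. The 3 that varied more were Rps3a1 (range 0.31), Rpl7l1 (0.28) and Rpl13a (0.25).

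**Figure D3:**
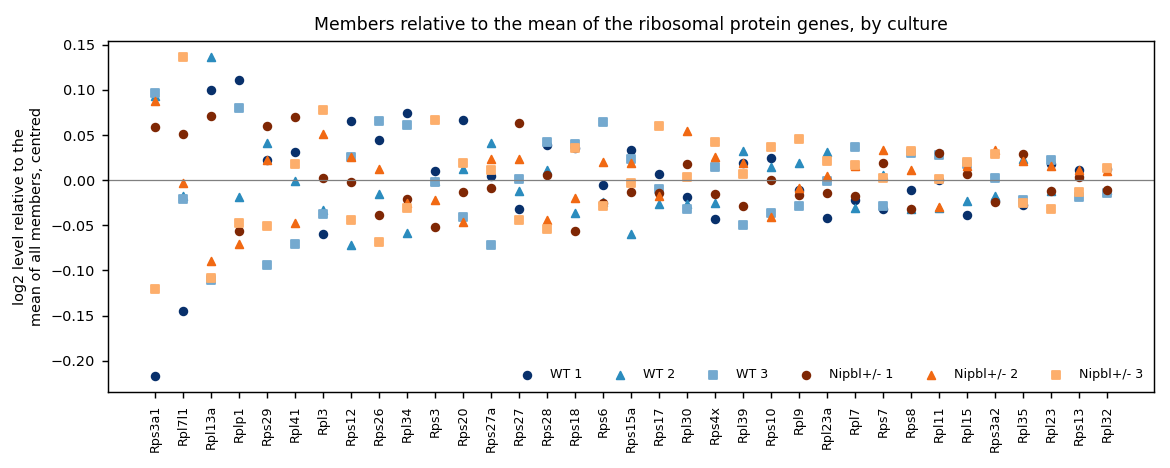
Log2 level of 35 tested members relative to the mean of all 37 in the same culture, centred on the gene's own mean (y axis), in the 6 cultures, with genes ordered from the largest range (left) to the smallest. Rps3a1, Rpl7l1 and Rpl13a spread by over 0.2, and most other genes stay within 0.1 of 0.

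In the large subunit, Rplp1 had the largest difference (chr9:61913284-61914538, mm10). It encodes an acidic protein of the P stalk, which recruits the elongation factors to the ribosome. Its level was 1783, 1519 and 1595 CPM in WT and 1469, 1499.7 and 1425 CPM in Nipbl+/-. Every Nipbl+/- culture lay below every WT culture, and the lowest WT and highest Nipbl+/- values were close. The log2 fold change was -0.16 (SE 0.0619, 95% interval -0.30 to -0.01, adjusted p = 0.256 by edgeR), and without WT 1 it was -0.09. The other P stalk genes of the name rule, Rplp0 and Rplp2, lie on the plus strand and are listed at 0.

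Rpl13a, which besides its place in the ribosome is known as an inhibitor of translation of inflammatory mRNAs, was at 1970.1, 1882 and 1556 CPM in WT and at 1786, 1647 and 1520.2 CPM in Nipbl+/-. Its groups overlapped, because WT 3 lay below Nipbl+/- 1 and 2, and the SE of 0.0927 was the highest of all members beside a log2 fold change of -0.13. That estimate was -0.06 without WT 1, -0.07 without Nipbl+/- 3 and -0.22 without WT 3.

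The only member with higher values in every Nipbl+/- culture was Rpl7l1 (chr17:46773907-46782656), a paralog of Rpl7. Its level was 135, 137 and 134 CPM in WT and 143, 142 and 146 CPM in Nipbl+/-, with a log2 fold change of 0.08 (SE 0.0463, adjusted p = 0.402 by edgeR). Rpl7 itself averaged 1284 ± 49.8 in WT and 1259 ± 44.8 CPM in Nipbl+/- (SD, n = 3). Non-overlap of this kind is common in the table. In all, 1 of 37 members lay above WT in this way and 3 lay below, against 12.0% and 10.8% of all tested genes.

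Rpl3 and Rpl30 also had an estimate above 0, and both had overlapping groups. Rpl3, whose protein reaches close to the peptidyl transferase centre, was at 1857, 1763 and 1724 CPM in WT and 1794, 1912 and 1823 CPM in Nipbl+/- (log2 fold change 0.05, SE 0.0468). Its estimate was 0.08 without WT 1, 0.03 without WT 3 and 0.02 without Nipbl+/- 2. Rpl30 averaged 458 ± 24.0 in WT and 463 ± 23.7 CPM in Nipbl+/-, and its estimate of 0.01 changed sign with the culture left out. Rpl11, which with Rpl5 and the 5S rRNA can bind MDM2 and so stabilise p53, was at 850.3, 775 and 792 CPM in WT and 803, 794 and 759 CPM in Nipbl+/-. The genotypes overlapped, and Rpl5 was not measured. Rpl34 (log2 fold change -0.09), Rpl39 (-0.04) and Rpl32 (-0.03) had intervals that included 0, and the estimate of Rpl34 was -0.03 without WT 1 and -0.15 without WT 2. Rpl10l, a copy of Rpl10 known for its expression in the testis, had 1 count in WT 3 and none in the other cultures and was the single member not tested.

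In the small subunit no member had an estimate above 0 with TMM scaling. The largest difference was that of Rps26, a protein at the mRNA exit channel, with 704, 629 and 653 CPM in WT and 615, 657 and 581 CPM in Nipbl+/-. Nipbl+/- 2 lay above WT 2 and 3, and the log2 fold change of -0.10 (SE 0.0620) had an adjusted p of 0.459 by edgeR. It was -0.06 without WT 1 and also without Nipbl+/- 3. Rps28, which lies beside it, was at 376, 344 and 345 CPM in WT and at 340.0, 339 and 315 CPM in Nipbl+/-. Its groups did not overlap, by a gap of a few CPM, and the adjusted p for its log2 fold change of -0.10 was 0.417 by edgeR. That log2 fold change was -0.06 both without WT 1 and without Nipbl+/- 3. Rps20, a protein of the small subunit head, was at 1188, 1066 and 1008 CPM in WT and at 1040.0, 1048 and 1026 CPM in Nipbl+/-. The WT cultures lay on both sides of the Nipbl+/- cultures, and the log2 fold change of -0.07 was -0.0016 without WT 1 and -0.12 without WT 3.

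Rps6, Rps3 and Rps27a, members with known roles beside the core of the ribosome, had overlapping groups. Rps6, the substrate of the S6 kinases, was at 1280.2, 1177 and 1228 CPM in WT and at 1168, 1243 and 1123 CPM in Nipbl+/-, which overlap. Rps3, which lines the mRNA entry and also acts in DNA repair, averaged 1186 ± 62.3 in WT and 1151 ± 31.9 CPM in Nipbl+/-. Rps27a, which is made as a fusion with ubiquitin, was at 905 ± 65.1 and 891 ± 34.6 CPM.

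Rps4x, encoded on the X chromosome, averaged 1474 ± 46.5 in WT and 1471 ± 49.1 CPM in Nipbl+/-, and its 95% interval on the log2 scale ran from -0.11 to 0.10. Its mean was 1473 CPM in the 3 cultures with high Xist counts and 1471 CPM in the 3 with few. For Rpl39, the other X-linked member, these means were 582 and 605 CPM. Rps27, a zinc-binding protein, was at 452 ± 16.4 and 449.8 ± 28.7 CPM in WT and Nipbl+/-. Rps12 was at 1584 ± 137 and 1526 ± 87.9 CPM, and Rps15a at 1016 ± 71.5 and 989.6 ± 41.7 CPM.

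By place in the ribosome, no group of members held a called gene. All 7 measured proteins of the small subunit head had log2 fold changes between -0.07 and -0.02. The 3 measured proteins around the exit of the peptide tunnel lay between -0.04 and -0.02, and the 2 at the mRNA exit were Rps26 and Rps28. Of the genes known to be mutated in Diamond-Blackfan anaemia, an inherited failure of red cell production caused by loss of one copy of a ribosomal protein gene, 12 of 20 were measured. Their log2 fold changes lay between -0.10 and -0.00, with a median of -0.03, and 0 passed the threshold. At an unadjusted p under 0.05 the number was also 0, against 8.98% of all tested genes higher and 7.95% lower.

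As a share of all counts, the members took 3.63%, 3.41% and 3.45% in the WT cultures and 3.45%, 3.58% and 3.43% in the Nipbl+/- cultures. The mean was 3.49% ± 0.116 in WT and 3.49% ± 0.0840 in Nipbl+/- (SD, n = 3). The difference of -0.0073 percentage points is far inside the spread of the cultures. The 2 most counted rows of the table, Gm26191 and Gm24105, took 12.5% to 15.4% of the counts, and with both left out of the total the share was 4.08% ± 0.168 in WT and 4.02% ± 0.0989 in Nipbl+/-.

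The balance of the subunits was also close. The ratio of summed RPKM (reads scaled by gene length and library size) of large to small subunit genes was 0.739, 0.730 and 0.722 in WT and 0.718, 0.709 and 0.734 in Nipbl+/-. The mean was 0.730 ± 0.0082 in WT and 0.720 ± 0.0125 in Nipbl+/-, and Nipbl+/- 3 lay above WT 2 and WT 3. Set against each WT culture in turn, the Nipbl+/- value was lower in 7 of 9 cases. A ratio below 1 reflects which genes lie on the counted strand as well as their levels, and it gives no ratio of the subunits themselves.

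**Figure D4:**
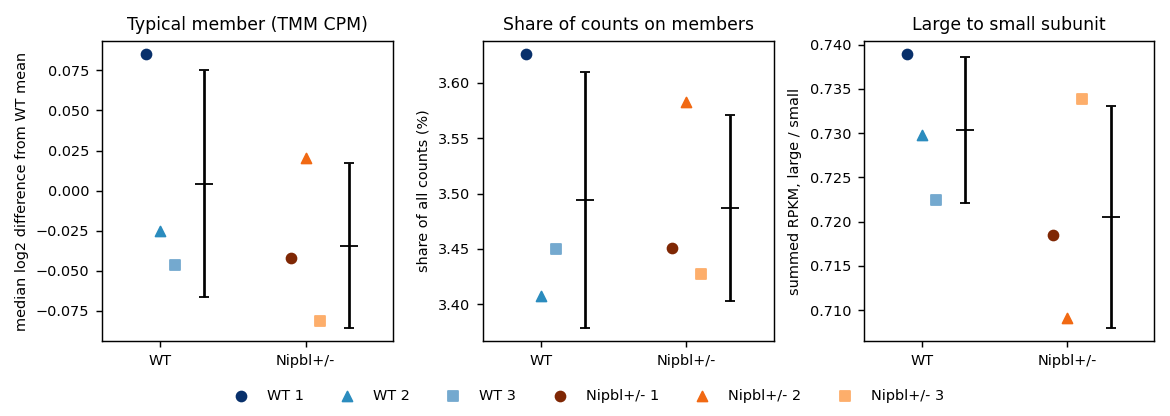
Median log2 difference of the tested members from their WT mean (left), share of all counts on the members in percent (middle) and ratio of summed RPKM of large to small subunit genes (right) in each culture, with mean and SD of 3 cultures in black. The y axes do not start at 0. In each panel the genotypes overlap, and WT 1 is the highest culture.

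Levels per length differed widely between members. The order by mean RPKM over the 6 cultures had at its upper end Rps12 (3156 ± 187), Rplp1 (3020 ± 205), Rps27 (1709 ± 65.6), Rpl32 (1661 ± 54.9), Rps26 (1383 ± 73.5), Rps3a1 (1304 ± 109) and Rpl3 (1287 ± 57.2). At its lower end were Rps3 (252 ± 8.64), Rps20 (252 ± 11.0), Rps28 (226 ± 8.99), Rps15a (155 ± 7.26), Rpl30 (147 ± 6.17) and Rpl7l1 (51.8 ± 2.78). Of the 36 pairs of neighbours in this order, 21 lay closer together than the sum of their SDs, among them Rps12 and Rplp1 at the top. Median RPKM was 549 in the large and 738 in the small subunit.

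Much of this order follows the gene length that was used. The length implied by count, RPKM and total was 264 bases for Rps27 and 6475 bases for Rps15a. For 18 of the 37 genes it was more than 2 times the length of a single coding transcript of the gene in GENCODE M21 (the shortest one with the longest complete coding sequence), and for Rps15a it was 10.1 times that length. Spearman's rho between RPKM and the implied length was -0.86 over the 37 genes. Divided by the length of that transcript, Rps15a moved from place 35 to place 8 and Rps28 from 34 to 20, while Rps26 moved from 5 to 29 and Rps20 was at 36. Rps12, Rplp1 and Rpl7l1 kept the places 1, 2 and 37. The fold from the highest to the lowest member was 60.9 in RPKM and 31.7 per length of the single transcript, and rho between both orders was 0.56. Since each length is the same in all cultures, this choice does not touch the comparison of genotypes for a single gene.

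**Figure D5:**
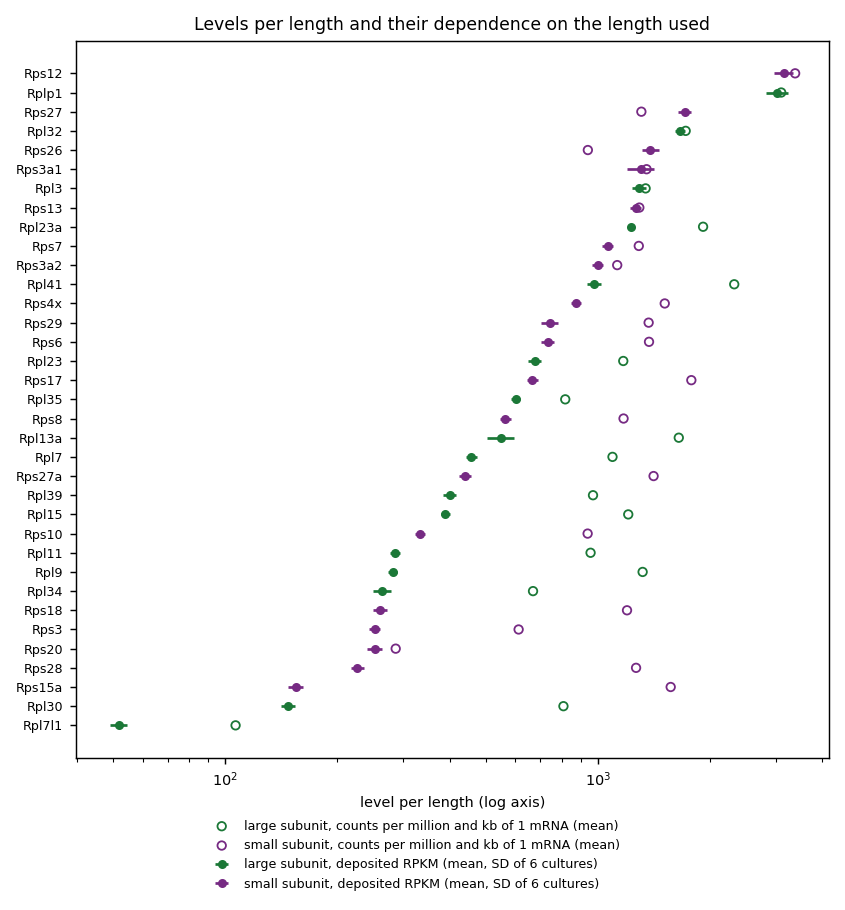
Mean level per length of 35 tested members (x axis, log scale), as deposited RPKM with the SD of 6 cultures (filled) and as CPM per kilobase of a single GENCODE M21 transcript (open), ordered by RPKM. The open points of Rps15a and Rps28 lie far to the right of the filled ones.

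Ribosomal protein genes have many near-identical copies in the genome, which bears on what a count means. For the median tested member, 62.2% of the 50-base stretches of its transcript occur also in a transcript of another gene in GENCODE M21. The share ran from 2.96% for Rps3 to 98.6% for Rps27. A further 118 rows of the minus strand carry the name of a ribosomal protein with the ending -ps, for pseudogene, and they held 0.597 to 0.615 counts for every count on a member. Of these rows, 69 belong to genes of the plus strand. Rpsa-ps10 had 28674, 25911 and 26908 counts in WT and 21832, 26311 and 24178 in Nipbl+/-, while Rpsa itself is listed at 0.

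Some of these rows held almost the same number in a culture. For 9 of the 11 Rps12-ps rows the counts lay between 5137 and 5144 in WT 1, between 4359 and 4363 in WT 3 and between 4331 and 4333 in Nipbl+/- 3. How reads that match several places were counted is not given in the sources used here. The same read may have been counted in several rows, so the levels of single members are uncertain to this extent. Of the -ps rows 94 were tested and 0 passed the threshold of edgeR's adjusted p. Their median log2 fold change was -0.05, and 74 of 94 were below 0, as were 51.6% of all tested genes. At an unadjusted p under 0.05, 5 of 94 were lower and 0 higher, against 7.95% and 8.98% of all tested genes. A fit without these rows, chosen after seeing the data, gave the members a median of -0.03 and called 0 of them.

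The clearest case of such a pair within the set is Rps3a1 and Rps3a2, which were picked for description after their values were seen. Rps3a1 (chr3:86137940-86142702) is the gene with introns, and Rps3a2 (chr14:88122971-88123833) is annotated as a processed pseudogene in GENCODE M21. Over the 792 bases of the Rps3a2 transcript the copies differ at 4, and the longest stretch without a difference is 317 bases. Rps3a1 had 26650, 31407 and 29614 counts in WT and 30041, 37286 and 24164 in Nipbl+/-. Rps3a2 had 20670, 19716 and 18812 counts in WT and 19219, 24338 and 18162 in Nipbl+/-. The ratio of Rps3a1 to Rps3a2 was 1.29, 1.59 and 1.57 in WT and 1.56, 1.53 and 1.33 in Nipbl+/-, so that WT 1 and Nipbl+/- 3 stand apart from the other 4 cultures and the genotypes do not.

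Genes around the ribosome gave no called gene either. Of the 2 ribosomal proteins outside the name rule that were tested, 0 passed the threshold, and Rpl36al had a log2 fold change of -0.05. Among 14 other genes with TOP mRNAs, 6 had estimates above and 8 below 0, with a median of -0.01. Eif2s3x, a translation initiation factor subunit encoded on the X chromosome, had an estimate of 0.21 (SE 0.256). That estimate turned to -0.036 with the Xist class as a covariate and ran from 0.055 to 0.53 with a culture left out. Its level was 683, 631 and 660 CPM in WT 3, Nipbl+/- 1 and Nipbl+/- 2, the cultures with high Xist counts, and 382 to 394 CPM in the others. The next largest were Eif3k (-0.10) and Eif3e (-0.08). The 3 elongation factor genes, of which Eef1a1 and Eef1d are also on the TOP list, lay near 0, with a log2 fold change of -0.01 for Eef1a1 (13422 ± 407 and 13298 ± 549.7 CPM in WT and Nipbl+/-), but its sign turned with library size alone. At an unadjusted p under 0.05 these 3 lists held 0 genes, against 8.98% of all tested genes higher and 7.95% lower.

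Of 10 regulators of TOP mRNAs and of ribosomal protein genes, 8 had estimates below 0 (median -0.05). By edgeR, 1 was higher and 0 lower at an unadjusted p under 0.05, against 8.98% and 7.95% of all tested genes. The higher gene was Eif4ebp2, a repressor of cap-dependent translation (log2 fold change 0.29, SE 0.106, edgeR adjusted p = 0.227). Rps6kb2, an S6 kinase, was at -0.16 and Max, the partner of Myc, at -0.13. Of 21 chaperones, importers and quality control factors of ribosomal proteins, 14 had estimates above 0 (median 0.03). Mdm2, the p53 ubiquitin ligase that free Rpl5 and Rpl11 bind, averaged 447 ± 10.8 in WT and 400.3 ± 19.0 CPM in Nipbl+/- (log2 fold change -0.16, adjusted p = 0.162 by edgeR). Otud3 was at 0.17 and Pdcd2l at 0.14.

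The mitochondrial ribosome, which has proteins of its own, showed no lean. Of its 31 tested genes, pseudogene names left out, 15 had estimates above and 16 below 0, with a median of -0.00043, and 0 passed edgeR's adjusted threshold. Mrpl54 (log2 fold change -0.23, adjusted p = 0.143 by edgeR) and Mrpl42 (0.16, adjusted p = 0.242 by edgeR) were the 2 with an unadjusted p under 0.05. Among all tested genes, 7.95% were lower and 8.98% higher at that unadjusted p. Mrpl32 was at -0.13.

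Markers of other cells and of growth are given beside these results. All 7 tested macrophage markers had estimates above 0 in Nipbl+/- cultures (median log2 fold change 1.04, 0 past the threshold, 7 at an unadjusted p under 0.05 by edgeR), and their summed level was 53.4 to 70.8 CPM in WT and 83.8 to 172 CPM in Nipbl+/-. All 7 tested proliferation markers had estimates above 0, of which Cdk1, Top2a and Mki67 passed the threshold. The summed level of the 7 was 706 to 769 CPM in WT and 937 to 1072 CPM in Nipbl+/-. Of all tested genes, 1.04% passed edgeR's adjusted threshold as higher and 0.916% as lower. At an unadjusted p under 0.05 by edgeR these shares were 8.98% and 7.95%. The 4 fibroblast markers had a median log2 fold change of -0.41 with 0 past the threshold and 2 lower at an unadjusted p under 0.05 by edgeR. These were the collagen genes Col6a1 (log2 fold change -0.50) and Col6a2 (-0.70), while Fbn1 was at -0.32 and Fn1 at 0.12. Their summed level, most of which is Fn1, was 17247 to 21302 CPM in WT and 18949 to 21197 CPM in Nipbl+/-. Krt8 of the epithelial list averaged 0.377 ± 0.0614 in WT and 1.08 ± 0.801 CPM in Nipbl+/-. Acta1 and the endothelial markers Kdr and Tie1 did not pass, and the erythroid list had 0 genes on the counted strand. In bulk RNA, fewer cells of a type and less RNA per cell cannot be told apart, and the part of these shifts in the levels of the ribosomal protein genes was not tested.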

How the data were processed

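Libraries of ribo-depleted total RNA were aligned by the authors with TopHat 2.0.10 to mm10 and Ensembl 72. The authors deposited for each culture a raw read count and an RPKM per gene. The counting tool, its use of strand and its handling of reads with several matches are not given in the sources used here. Every plus-strand row is 0. Columns were joined by gene identifier. Genes were filtered with filterByExpr (minimum count 10), scaled by TMM over the full totals and tested with edgeR 4.0.16 (quasi-likelihood, R 4.3.3) on all 6 cultures without covariates, with Benjamini-Hochberg adjustment over 9061 genes and a threshold of 0.05. DESeq2 1.42.0 was an alternative. The SE was taken as the size of the log2 fold change over the root of the F statistic, and 95% intervals use the moderated degrees of freedom. The steps were tested on simulated data. Replicates differed beyond counting error (chi-square per degree of freedom at least 10.1). Nothing in the sources ties a culture to its own embryo, so p-values measure the spread between these samples. Depth was at least 20307454 counts per culture, and counts of members carry little counting error, so that the number of cultures limits precision. Named genes are Nipbl, in each subunit the 3 members at each end of the RPKM order and of the log2 fold changes, members with known roles or paralogs, the untested member, and up to 3 genes per comparison list. Members and lists were chosen with earlier results of these data known. Transcript sequences and lengths are those of GENCODE M21, and start regions those of RefSeq. Some genes that this rule names are not reported here and are left out of the plots.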

Additional observations from a re-analysis of the deposited data

How the results depend on the processing

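The number of called members was 0 under all 17 alternatives run. The median log2 fold changes of both subunits moved by less than the spread between cultures under each of them. They were 0.0085 (large) and 0.00075 (small) with library size alone, where the median of all genes shifted from -0.01 to 0.03, and ran from -0.06 to 0.0059 (large) and from -0.07 to 0.0063 (small) with each culture left out. The share of counts differed by -0.055 to 0.058 percentage points with each culture left out. The subunit ratio differed by -0.017 to -0.0042 with each culture left out. As a difference of mean log2(RPKM + 1), a measure in which genes weigh equally, it differed by 0.0021. With log2(RPKM + 0.1), which also weighs genes equally, it differed by -0.0065, so the sign depended on the constant added. Both measures include Rpl10l, whose RPKM was 0.0445 in WT 3, from 1 count, and 0 in every other culture. A value so near 0 weighs more with the smaller constant. Neither measure was run without Rpl10l. In the fit with a replicate block, medians were -0.03 and -0.04, and Nipbl had an adjusted p of 0.0406. The same-numbered cultures correlated at -0.08, -0.04 and -0.19 in their deviations from the genotype means, so the numbers were not taken as pairs. The block lowered the calls over all genes from 177 to 86 and changed no call of a member.

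Nipbl lost its call without WT replicate 1 (adjusted p = 0.0755), Nipbl+/- replicate 1 (0.0864) or Nipbl+/- replicate 2 (0.0772), with a log2 fold change of -0.47 to -0.39 over all cultures left out. Over all genes, DESeq2 called 449, edgeR's exact test 432, its likelihood ratio test 442 and the fit with no filter 325, against 177. With a culture left out between 3 and 268 were called. Signs of genes near 0 turned. With library size alone the log2 fold changes became Rpl32 0.0079, Rps27 0.030, Rps15a 0.00040, Rpl11 0.00070, Rps27a 0.016, Rps4x 0.035, Rpl7 0.010, Rps3a1 0.018, Rps3a2 0.025, Eef1a1 0.025, Eef1d 0.017, Eef1e1 0.037. Without a filter that of Eef1e1 became 0.00020, and with the Xist class as a covariate that of Eif2s3x became -0.036. The range with a culture left out crossed 0 for Rpl32 -0.062 to 0.015, Rpl30 -0.026 to 0.054, Rps12 -0.10 to 0.016, Rps27 -0.036 to 0.044, Rps15a -0.079 to 0.017, Rpl11 -0.065 to 0.00046, Rps27a -0.079 to 0.021, Rps4x -0.031 to 0.021, Rpl7 -0.058 to 0.00035, Rpl39 -0.091 to 0.0059, Rps3a1 -0.083 to 0.067, Rps3a2 -0.048 to 0.019, Eef1a1 -0.047 to 0.0075, Eef1e1 -0.052 to 0.064. None of these genes passed the threshold in any of these fits. Depth does not limit the members. The 49 plus-strand genes were not measured, and 3 cultures per genotype limit what can be said of the others.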

Other observations

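Introns of ribosomal protein genes often hold small nucleolar RNAs, which guide the modification of rRNA and are released from the spliced intron. Within the coordinates of 15 members lie 28 further rows of the minus strand, most of them small nucleolar RNAs, and 17 of these were tested. Of the 17, 15 had a log2 fold change below 0 (median -0.22, range -0.99 to 0.09), 0 passed edgeR's adjusted threshold and 2 were lower at an unadjusted p under 0.05. Of all tested genes, 51.6% were below 0 and 7.95% were lower at that unadjusted p. These were Snord32a within Rpl13a (log2 fold change -0.99, SE 0.405) and Snora21 within Rpl23 (-0.67, SE 0.265). SEs ran from 0.191 to 0.421, since most rows hold few counts, and 15 of the 28 rows overlap an annotated exon of the host, whose reads cannot be told apart from theirs. The host genes themselves were at log2 fold changes of -0.13 for Rpl13a and -0.06 for Rpl23. Small nucleolar RNAs outside these genes were not compared here, so the lean cannot be called particular to rows within ribosomal protein genes.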
